A study of Mus musculus with 8 samples.

Results

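The conjugating enzymes of the liver were examined in 8 RNA-seq samples, 4 with alcohol and 4 with saline. Their genes were picked by symbol alone: the UDP-glucuronosyltransferases (Ugt1a, Ugt2 and Ugt3a symbols), the cytosolic sulfotransferases (Sult), and the glutathione transferases (Gst, with the microsomal Mgst genes). The symbol rule used no measured value, although these enzymes were chosen with earlier results of these data known. It gave 59 of 21049 listed genes, made up of 19 UGT, 13 SULT and 27 GST genes. Of these, 44 had a mean of at least 1 FPKM and were tested (15 UGT, 6 SULT and 23 GST), and the other 15 were too low to test. FPKM is a fragment count scaled to gene length and library total, so it allows levels of different genes to be set side by side. The alcohol group is labelled with alcohol as its treatment and described as alcohol-fed, and the control group received saline. Both groups are labelled wild type, and the design text names C57BL/6, an inbred mouse strain. The sources used here give no dose, duration, age or sex. The tissue label of all 8 samples is liver, while another label names AML12, a cultured line of mouse hepatocytes. Transcripts of endothelial and stellate cells, which a hepatocyte line alone does not supply, were present in all samples and are given further on. Separate animals are not stated for the samples, and the p-values therefore cover only the spread among these 8 libraries. Alcohol replicates 2 and 4 resembled each other far more than any other pair, and counts are therefore also given with these 2 averaged as 1.

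Conjugation makes drugs, hormones, bilirubin and reactive metabolites more soluble so that they can leave the hepatocyte. UGT enzymes sit in the endoplasmic reticulum and attach glucuronic acid taken from UDP-glucuronic acid. SULT enzymes are cytosolic and transfer sulfate from PAPS, the activated form of sulfate. GST enzymes attach the tripeptide glutathione to electrophiles, including products of lipid peroxidation. They fall into classes named after Greek letters (mu for Gstm, alpha for Gsta, pi for Gstp, theta for Gstt, kappa for Gstk, omega for Gsto and zeta for Gstz) beside the membrane-bound Mgst enzymes. In rodent liver many of these genes are known targets of the receptors CAR (Nr1i3), PXR (Nr1i2) and AHR, of the antioxidant regulator NRF2 (Nfe2l2), and of the hepatocyte factor HNF1 alpha.

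Promoter windows (250 bases before to 50 bases after the start, RefSeq, GRCm38.p6) were matched by symbol for 50 of the 59 genes, as 62 windows. Gsta3 and Mgst1 are shown first because both windows hold the antioxidant response element core TGACNNNGC, in capitals, while one transcript rose and the other fell with alcohol. The Gsta3 window is chr1:21240335-21240634 on the plus strand and holds the core at position -121 from the start. The Mgst1 window is chr6:138140277-138140576, also on the plus strand, with the core on the opposite strand.
Gsta3: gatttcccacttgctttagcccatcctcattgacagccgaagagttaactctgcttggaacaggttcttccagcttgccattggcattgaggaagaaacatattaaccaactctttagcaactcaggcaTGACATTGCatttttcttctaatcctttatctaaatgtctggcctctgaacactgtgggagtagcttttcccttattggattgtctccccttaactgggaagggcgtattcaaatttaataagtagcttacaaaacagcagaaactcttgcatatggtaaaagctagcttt
Mgst1: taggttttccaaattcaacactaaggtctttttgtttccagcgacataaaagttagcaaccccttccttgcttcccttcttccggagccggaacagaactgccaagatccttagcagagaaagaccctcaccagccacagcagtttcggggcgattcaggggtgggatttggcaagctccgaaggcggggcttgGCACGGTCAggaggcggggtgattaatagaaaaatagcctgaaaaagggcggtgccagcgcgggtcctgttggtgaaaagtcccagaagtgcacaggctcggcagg

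Ugt1a9 (chr1:88070529-88070828, plus strand) and Ugt1a1 (chr1:88211709-88212008, plus strand) start from different first exons of one gene complex, and both transcripts rose. Both windows hold the HNF1 motif GTTAAT, here read on the opposite strand and set in capitals.
Ugt1a9: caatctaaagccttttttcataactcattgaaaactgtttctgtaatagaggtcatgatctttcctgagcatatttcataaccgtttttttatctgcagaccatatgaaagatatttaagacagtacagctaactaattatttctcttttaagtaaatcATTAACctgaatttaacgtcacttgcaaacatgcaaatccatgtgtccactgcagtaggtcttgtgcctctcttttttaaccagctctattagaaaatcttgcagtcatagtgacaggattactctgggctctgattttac
Ugt1a1: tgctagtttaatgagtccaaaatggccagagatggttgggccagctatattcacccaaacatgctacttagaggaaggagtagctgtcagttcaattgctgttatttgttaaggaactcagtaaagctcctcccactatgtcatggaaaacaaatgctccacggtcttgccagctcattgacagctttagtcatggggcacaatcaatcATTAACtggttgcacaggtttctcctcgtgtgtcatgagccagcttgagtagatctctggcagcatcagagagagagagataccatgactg

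Ugt2b38 (chr5:87424154-87424453, minus strand) and Ugt2b5 (chr5:87140291-87140590, minus strand) lie in the same gene cluster, with Ugt2b37 and Ugt2a3 between them. Their windows were 84.2% identical on global alignment. Ugt2b38 had the largest fall of the 44 tested genes, and Ugt2b5 passed no test in either direction. The window of Ugt2b37 was closer still to that of Ugt2b38 (87.3% identical), and Ugt2b37 also fell (log2 change -0.99). Capitals mark the 39 bases in each of the Ugt2b38 and Ugt2b5 windows that have no match in the other.
Ugt2b38: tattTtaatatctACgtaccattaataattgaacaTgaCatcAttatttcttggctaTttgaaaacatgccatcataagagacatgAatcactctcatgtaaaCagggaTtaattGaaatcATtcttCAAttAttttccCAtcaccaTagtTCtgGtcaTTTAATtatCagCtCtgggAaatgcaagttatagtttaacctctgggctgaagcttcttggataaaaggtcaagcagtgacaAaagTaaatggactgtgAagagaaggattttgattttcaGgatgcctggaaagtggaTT
Ugt2b5: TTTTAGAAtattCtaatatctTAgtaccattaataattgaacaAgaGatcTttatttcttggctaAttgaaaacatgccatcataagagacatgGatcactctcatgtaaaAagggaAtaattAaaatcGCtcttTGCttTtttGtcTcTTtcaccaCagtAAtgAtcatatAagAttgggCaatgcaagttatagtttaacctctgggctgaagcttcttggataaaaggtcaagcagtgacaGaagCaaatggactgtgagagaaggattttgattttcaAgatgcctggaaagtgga

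Across all 32851 promoter windows the antioxidant core, searched on both strands, was found in 12.4%, and in 4 of the 62 windows of these enzymes (6.45%): Gsta3 and Gstm5, which rose, Mgst1, which fell, and Gstm7, which was not called. The dioxin response core GCGTG was found in 32.4% of all windows and 22.6% of those of the enzymes. The STAT5 motif TTCNNNGAA was found in 8.30% and 9.68% of them. The HNF1 motif was found in 7.10% of all windows and in 14.5% of the enzymes' windows. Its 9 genes were Gsta3, Sult1a1, Sult1d1, Ugt1a1, Ugt1a6a, Ugt1a9, Ugt1a10, Ugt2a3 and Ugt3a1, of which 8 were tested, 5 rose, 2 fell and 1 was not called. Over all tested genes 44.2% rose and 13% fell. One pair of motifs overlapped, the antioxidant and dioxin cores of Gstm5. A match is a run of letters in the window, and binding was not measured.

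Library totals, recovered from the FPKM values as whole reads, were 37132631 to 38407511 reads with alcohol and 33872595 to 34789814 reads in controls. Across the 9228 genes tested, 44.2% were higher and 13% lower with alcohol at a limma adjusted p (Benjamini-Hochberg) under 0.05, and the median log2 change was 0.24. Scaling the libraries by median-of-ratios factors moved that median to -0.003 and the split to 2386 genes higher and 2446 lower. Abundant genes could move by more than the median gene: Gstz1 had a log2 change of 0.04 on the FPKM scale and -0.26 with median-of-ratios scaling. The log2 changes below are on the FPKM scale and are best read against the median of all genes.

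Summed over all 59 genes, the level overlapped between the groups, at a ratio of means of 1.06, or 0.853 with median-of-ratios scaling. The mu, alpha, pi and microsomal shares of the GST sum did not overlap between the groups, nor did the Sult1 and Sult2 shares. The share of every UGT subfamily did overlap. Of the 44 tested genes, 17 rose (38.6%), 10 fell (22.7%) and 17 were not called, where 57.2% of all tested genes were called in either direction. Their median log2 change was 0.06. On the FPKM scale the share that rose lay below the 44.2% of all tested genes, and the share that fell lay above the background of 13%. With median-of-ratios scaling 13 of the 44 rose and 19 fell, beside 2386 and 2446 of all 9228 tested genes. Quantile normalization gave 15 and 12, beside 2221 and 2307. Under both of these scalings the share that rose lay above that of all tested genes. With alcohol replicates 2 and 4 averaged 16 rose and 12 fell, beside 3791 and 1099 of all tested genes. Among the GST genes 11 of 23 rose and 2 fell, with a median log2 change of 0.18. Among the UGT genes 4 of 15 rose and 5 fell, with a median of 0.06. Among the SULT genes 2 of 6 rose and 3 fell, with a median of -0.43. A rise of at least 1 on the log2 scale was seen in 9 of the 44 genes, and in 7.07% of all tested genes. These were Gstm1, Gstm3, Gstm4, Gsta1, Gsta2, Gstt3, Mgst3, Sult1a1 and Ugt1a9. A fall of at least 1 was seen in Sult2a8, Sult5a1 and Ugt2b38, and in 2.11% of all tested genes. The alcohol samples lay wholly above the controls in 14 of the 44 genes (39.5% of all tested genes) and wholly below them in 8 (10.7% of all tested genes; 50.2% in either direction).

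**Figure D1:**
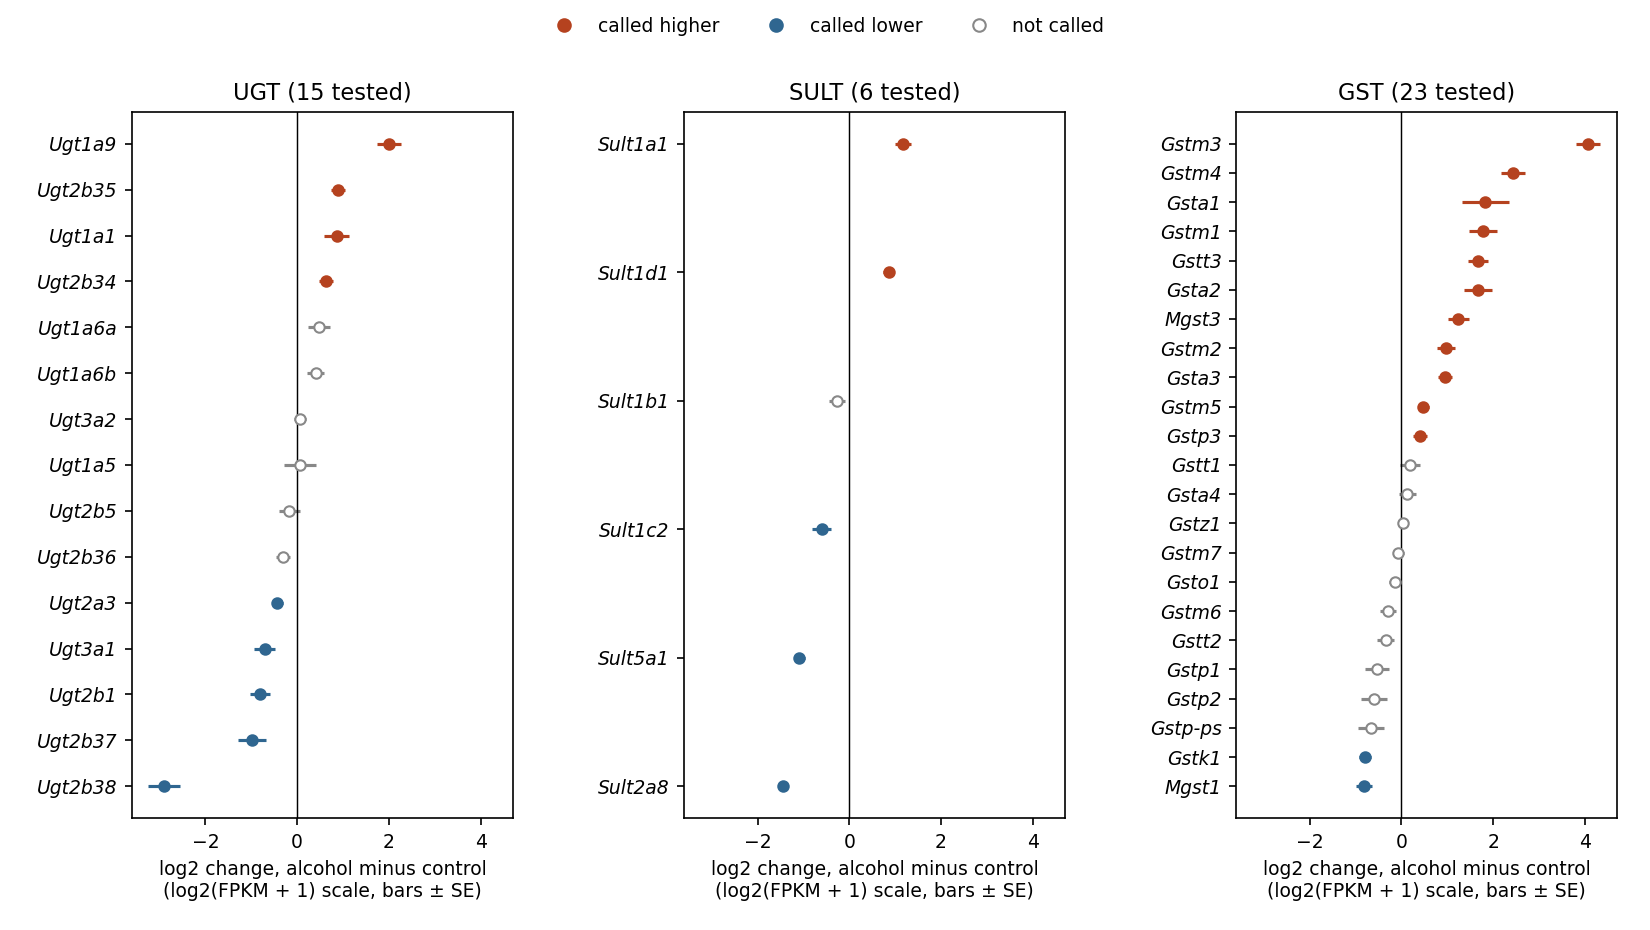
Log2 change (alcohol minus control, log2(FPKM + 1) scale) of the 44 tested conjugating enzymes by class, with bars of ± 1 SE and filled points for genes past a limma adjusted p of 0.05. Changes run from -2.90 for Ugt2b38 to 4.07 for Gstm3. Marked higher are 11 of 23 GST genes (47.8%), 4 of 15 UGT genes (26.7%) and 2 of 6 SULT genes (33.3%). Over all tested genes 44.2% were higher.

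The mu class carried the largest changes among the glutathione transferases. Of its 7 genes 5 rose (71.4%, against 44.2% of all tested genes) and none fell on the FPKM scale. Median-of-ratios scaling left 4 of these calls (Gstm5 had a log2 change of 0.20 there) and called Gstm6 and Gstm7 lower. Gstm3 had 203, 427, 189 and 386 FPKM in alcohol replicates 1 to 4, against 13.3, 14.5, 22.2 and 14.9 FPKM in control replicates 1 to 4. Every alcohol sample was many times above every control, with replicates 2 and 4 the highest. Its log2 change of 4.07 ± 0.27 (SE, adjusted p = 1.95e-06) was the largest of the 44 genes. Gstm1, the most abundant mu transcript in both groups, had 1674, 3369, 1544 and 3494 FPKM in alcohol replicates 1 to 4, against 466, 753, 878 and 717 FPKM in control replicates 1 to 4. The groups did not overlap, and the lowest alcohol value belonged to replicate 3. The log2 change was 1.77 ± 0.30 (adjusted p = 0.000625). Gstm4 stood at 51.4, 93.2, 39.8 and 88.3 FPKM in alcohol replicates 1 to 4, against 11.4, 10.4, 14.1 and 8.995 FPKM in control replicates 1 to 4. Again replicates 2 and 4 were the high pair of the alcohol group, and all 4 alcohol samples lay above the controls. Its log2 change was 2.43 ± 0.25 (adjusted p = 3.28e-05). Smaller rises were found for Gstm2, at 73.7 ± 18.8 FPKM with alcohol and 36.7 ± 7.67 FPKM in controls (SD, n = 4 each; log2 change 0.97 ± 0.20, adjusted p = 0.00196). Gstm5 averaged 13.3 ± 1.74 FPKM with alcohol and 9.29 ± 1.11 FPKM in controls (adjusted p = 0.00598). Gstm6 averaged 38.8 ± 5.37 FPKM with alcohol and 48.2 ± 12.2 FPKM in controls and was not called, although it passed as lower without control replicate 1 (adjusted p = 0.0495). Gstm7, at 26.8 ± 1.86 FPKM with alcohol and 28.3 ± 4.999 FPKM in controls, was not called either.

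The 7 mu genes lie side by side on chromosome 3 (GRCm38, GENCODE M21), from 107895821 to 108044894. From the low end the order is Gstm5, Gstm7, Gstm6, Gstm3, Gstm2, Gstm1 and Gstm4. Gstm3, Gstm2, Gstm1 and Gstm4, which follow each other on the minus strand, all rose, while Gstm7 and Gstm6, which lie between Gstm5 and Gstm3, were not called. Near-identical stretches limit how exactly reads can be assigned: 28.8% of the 50-base stretches of Gstm3 and 18.9% of those of Gstm1 occur in another gene, pseudogenes among them. Gstm4, with no shared stretch, rose as well. Gstm5 overlaps 4933431E20Rik on the other strand, and whether the libraries kept strand is not given.

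Alpha-class genes, which bind bulky electrophiles and steroids, also rose: 3 of 4 tested (75%, against 44.2% of all tested genes), all but Gsta4. Gsta3, the main alpha transcript of these samples and in mice the enzyme that detoxifies the aflatoxin epoxide, averaged 1278 ± 147 FPKM with alcohol and 666 ± 123 FPKM in controls (log2 change 0.95 ± 0.16, adjusted p = 0.00058). Gsta2 had 16.5, 38.3, 13.6 and 33.03 FPKM in alcohol replicates 1 to 4, against 4.98, 8.44, 8.32 and 5.44 FPKM in control replicates 1 to 4. Replicates 2 and 4 were the high pair of the alcohol group, and every alcohol sample exceeded the controls. Its log2 change was 1.66 ± 0.30 (adjusted p = 0.001). Gsta1, a low-level relative of Gsta2, had 3.25, 7.29, 0.696 and 13.4 FPKM in alcohol replicates 1 to 4, against 0.167, 0.744, 0.636 and 0.617 FPKM in control replicates 1 to 4. Alcohol replicate 3 fell within the control range, so the groups overlapped. The log2 change of 1.83 ± 0.51 (adjusted p = 0.0109) was lost when no expression minimum was set (adjusted p = 0.0524). Reads of Gsta1 and Gsta2 are uncertain one by one, since 90.5% of the 50-base stretches of Gsta1 and 49.8% of those of Gsta2 recur in another gene. Gsta4, which in mice conjugates the lipid aldehyde 4-hydroxynonenal, averaged 36.4 ± 6.33 FPKM with alcohol and 33.6 ± 8.59 FPKM in controls and was not called. It lies on chromosome 9 next to Gsta1 and Gsta2.

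**Figure D2:**
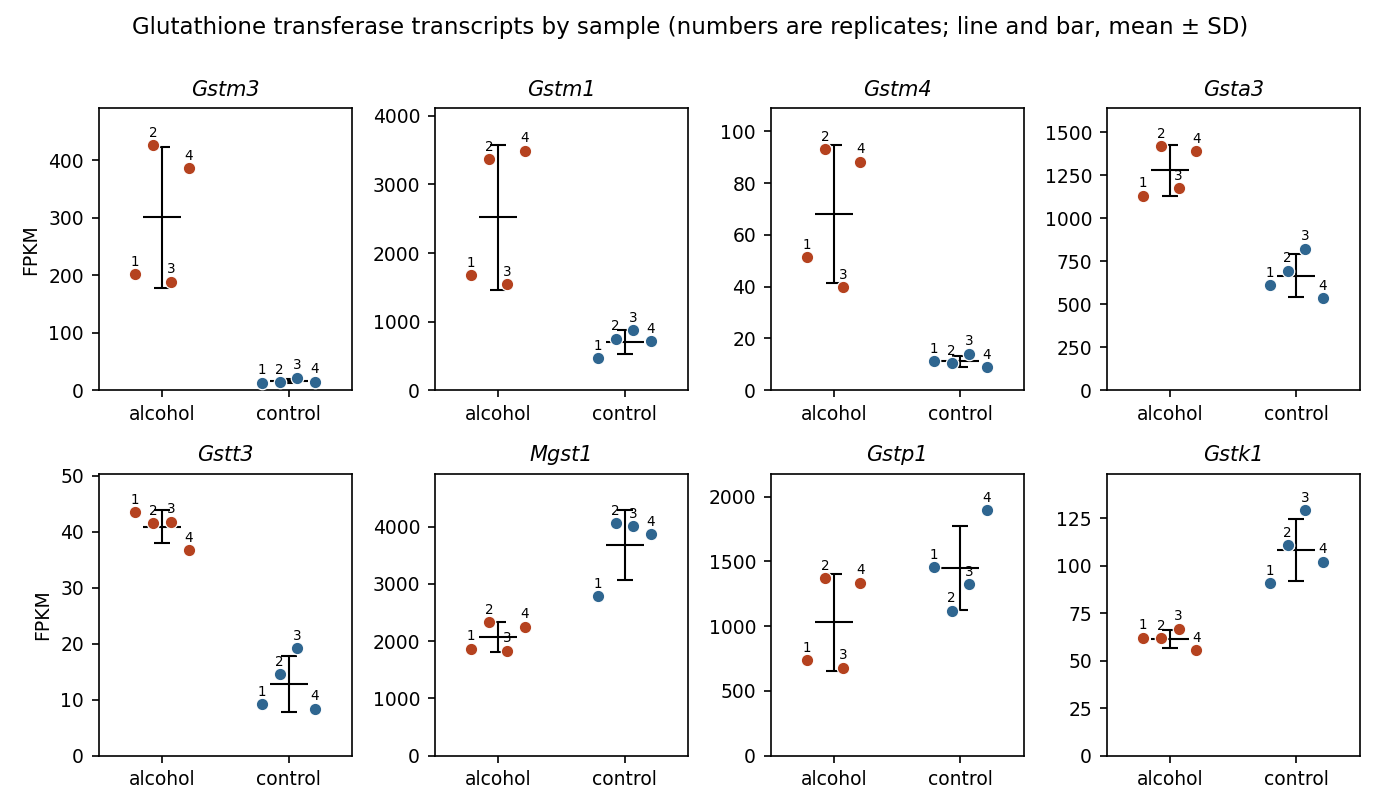
FPKM of 8 glutathione transferase transcripts in each sample (points, numbered by replicate), alcohol left and control right, with a horizontal line at the mean and bars of ± 1 SD; each panel has its own axis from 0. The 4 alcohol samples lie above all controls for Gstm3, Gstm1, Gstm4, Gsta3 and Gstt3 and below them for Mgst1 and Gstk1, while the groups overlap for Gstp1.

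The theta class was divided. Gstt3 had 43.6, 41.5, 41.8 and 36.7 FPKM in alcohol replicates 1 to 4, against 9.24, 14.5, 19.2 and 8.42 FPKM in control replicates 1 to 4. The alcohol values were close together and all above the controls (log2 change 1.67 ± 0.21, adjusted p = 0.000117); 12.5% of its 50-base stretches are shared, mostly with Gm20441, which overlaps it on the same strand. Its neighbour Gstt1 averaged 254 ± 24.9 FPKM with alcohol and 233 ± 75.4 FPKM in controls and was not called. Gstt2, at 23.6 ± 1.71 FPKM with alcohol and 31.1 ± 9.53 FPKM in controls, was not called, and it passed as lower without control replicate 4 (adjusted p = 0.0489). In the pi class 3 of 4 transcripts averaged lower with alcohol without passing the test on the FPKM scale, and Gstp3 rose. Gstp1, one of the 3 most abundant GST transcripts, had 735, 1370.5, 679.8 and 1335 FPKM in alcohol replicates 1 to 4, against 1456, 1120.0, 1323 and 1893 FPKM in control replicates 1 to 4. The alcohol values split into a pair within the control range (replicates 2 and 4) and a pair below them (replicates 1 and 3). The log2 change was -0.54 ± 0.26 (adjusted p = 0.0968). It passed the test with median-of-ratios scaling (adjusted p = 0.0252), with alcohol replicates 2 and 4 averaged (0.0463) and without alcohol replicate 2 (0.0431). Gstp2 and Gstp-ps passed as lower under the same 3 alternatives, at adjusted p of 0.0135 to 0.0322 for Gstp2 and 0.0205 to 0.0253 for Gstp-ps, and Gstp-ps also without alcohol replicate 4 (0.0249). Gstp2 and the pseudogene Gstp-ps had log2 changes of -0.59 and -0.67 and were not called. In the M21 gene models they share 54.3% and 71.1% of their 50-base stretches with other genes. The length recovered from the FPKM values of Gstp-ps was 4426 bases, against 631 in M21, so the counted model may differ. Gstp3, with no shared stretch, averaged 27.3 ± 4.77 FPKM with alcohol and 20.2 ± 3.54 FPKM in controls (adjusted p = 0.0415), a call lost under 8 of 19 alternatives. Among these were leaving out alcohol replicate 2 (adjusted p = 0.111), alcohol replicate 4 (0.107), control replicate 1 (0.0961) or control replicate 4 (0.0845).

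Among the other cytosolic classes, Gstk1, the kappa enzyme of mitochondria and peroxisomes, fell to 61.5 ± 4.61 FPKM with alcohol and 108 ± 16.2 FPKM in controls (SD, n = 4 each), with all alcohol samples below the controls (log2 change -0.80 ± 0.12, adjusted p = 0.000382). Gsto1, an omega enzyme that reduces dehydroascorbate, averaged 70.4 ± 7.13 FPKM with alcohol and 78.4 ± 11.9 FPKM in controls. Gstz1, which in tyrosine breakdown isomerises maleylacetoacetate, averaged 178 ± 5.78 FPKM with alcohol and 174 ± 20.1 FPKM in controls. Neither was called. The microsomal enzymes moved apart. Mgst1, found in the endoplasmic reticulum and outer mitochondrial membrane, was the most abundant of all 59 transcripts in controls. It had 1868, 2330.2, 1836 and 2255 FPKM in alcohol replicates 1 to 4, against 2782, 4066, 4004 and 3869 FPKM in control replicates 1 to 4. Every alcohol sample lay below every control, and control replicate 1 was the lowest of its group. The log2 change was -0.82 ± 0.17 (adjusted p = 0.00212). Mgst3, at a far lower level, had 19.9, 23.1, 21.1 and 22.3 FPKM in alcohol replicates 1 to 4, against 4.87, 14.02, 10.01 and 7.62 FPKM in control replicates 1 to 4. Its alcohol samples were all above the controls (log2 change 1.24 ± 0.23, adjusted p = 0.00112).

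Summed over the 27 GST genes, the level was 6518, 10029, 6329.7 and 9955 FPKM in alcohol replicates 1 to 4, against 6049.9, 7638, 8129 and 7846 FPKM in control replicates 1 to 4. The groups overlapped, and the ratio of the alcohol mean to the control mean was 1.11, or 0.893 with median-of-ratios scaling. Within the class, shares do not depend on how libraries are scaled. The mu genes made up 30.01% to 41.4% of the class sum in alcohol samples, against 9.72% to 13.1% in controls. The alpha genes made up 14.8% to 19.2% of the class sum in alcohol samples, against 7.32% to 10.8% in controls. The pi genes made up 11.5% to 14.5% of the class sum in alcohol samples, against 15.7% to 25.4% in controls. The microsomal genes made up 22.9% to 29.3% of the class sum in alcohol samples, against 46.1% to 53.4% in controls. Mu and alpha shares were thus higher in every alcohol sample than in any control, and pi and microsomal shares lower. The leading single transcript was Gstm1 with alcohol, at 30.7% of the class sum, against 9.49% in controls. In controls it was Mgst1, which made up 25.2% with alcohol and 49.6% in controls. As summed FPKM the mu genes averaged 3042 ± 1223 with alcohol and 854 ± 199 in controls, a ratio of 3.56 that stayed between 2.87 and 3.92 under the other scalings. The microsomal sum averaged 2094 ± 258 with alcohol and 3689.5 ± 608 in controls, a ratio of 0.568.

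**Figure D3:**
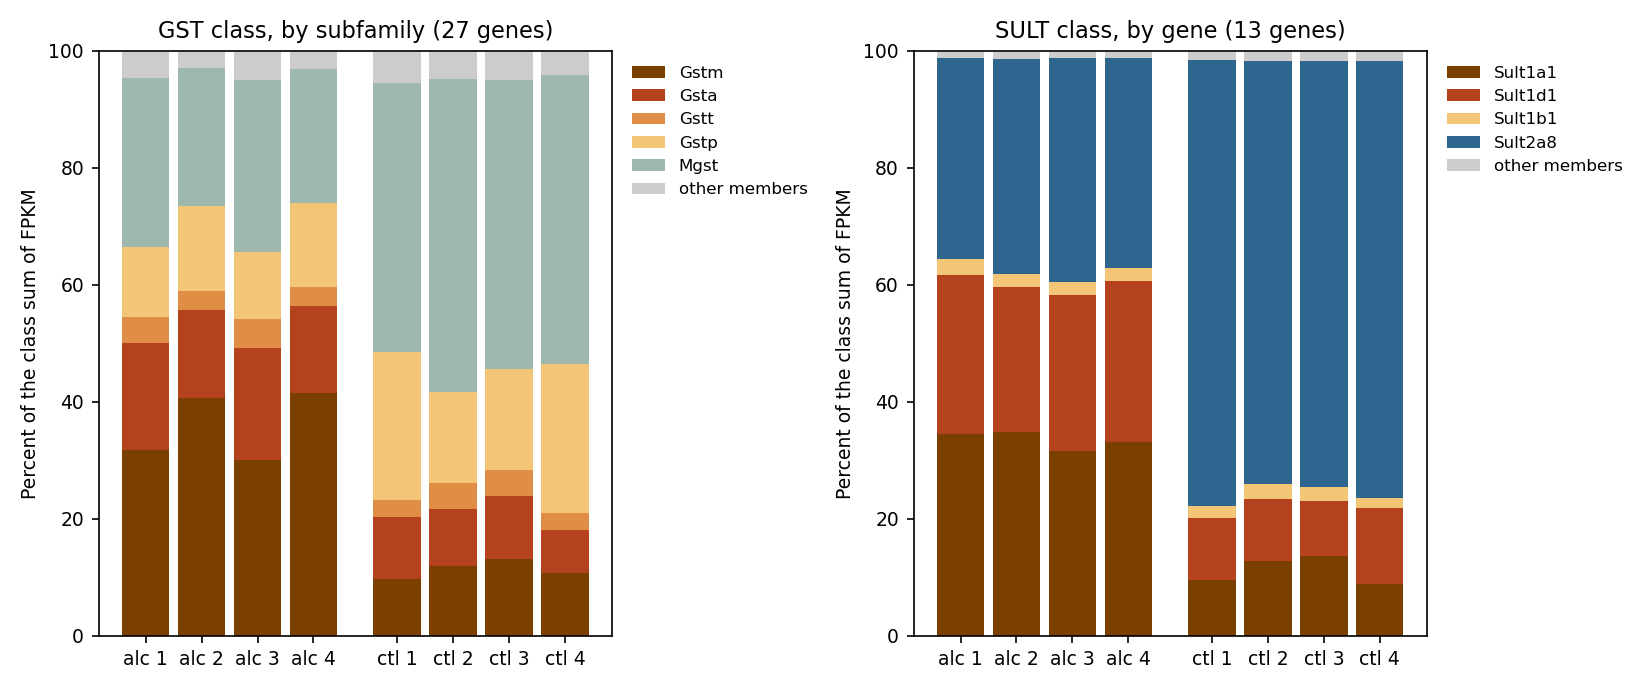
Share of the class sum of FPKM in each sample (alc, alcohol replicates 1 to 4; ctl, control replicates 1 to 4), for the GST class by subfamily at left and the SULT class by gene at right; each column adds to 100%. The mu genes (Gstm) hold 30.01% to 41.4% of the GST sum in alcohol samples against 9.72% to 13.1% in controls, and Sult2a8 holds 34.4% to 38.3% of the SULT sum against 72.4% to 76.3%.

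The sulfotransferases showed a turn from Sult2a8 towards Sult1a1 and Sult1d1. Sult2a8, which sulfates bile acids in mouse liver, had 159, 137, 167 and 144 FPKM in alcohol replicates 1 to 4, against 421, 443, 407 and 382 FPKM in control replicates 1 to 4. The groups were far apart and each was tight (log2 change -1.44 ± 0.11, adjusted p = 4.26e-06). Sult1a1, the main phenol sulfotransferase, had 159, 130.0, 138 and 133 FPKM in alcohol replicates 1 to 4, against 52.5, 78.4, 75.97 and 45.6 FPKM in control replicates 1 to 4. All alcohol samples were above the controls. The log2 change was 1.17 ± 0.17 (adjusted p = 0.000293). In M21 it overlaps Sgf29 on the other strand, but it has 1507 exon bases there, against a length of 4264 recovered from its FPKM values. Sult1d1, which in mice sulfates dopamine and other catecholamines, had 125, 91.8, 116 and 109.9 FPKM in alcohol replicates 1 to 4, against 58.1, 64.5, 52.9 and 66.6 FPKM in control replicates 1 to 4. Here too the groups were apart (log2 change 0.86 ± 0.12, adjusted p = 0.00025). Sult5a1 was low in all samples, with 1.53, 1.26, 0.757 and 0.953 FPKM in alcohol replicates 1 to 4, against 3.78, 2.96, 3.42 and 3.77 FPKM in control replicates 1 to 4. Its alcohol values were all under the lowest control (log2 change -1.09 ± 0.13, adjusted p = 6.02e-05). Sult1c2 averaged 2.63 ± 0.785 FPKM with alcohol and 4.51 ± 1.33 FPKM in controls (log2 change -0.60 ± 0.20, adjusted p = 0.0268). This call was lost without alcohol replicate 1 (adjusted p = 0.0624), control replicate 2 (0.0776) or control replicate 3 (0.0687). Sult1b1, which sulfates thyroid hormone, averaged 9.97 ± 1.92 FPKM with alcohol and 12.3 ± 2.75 FPKM in controls and was not called, and it passed as lower without control replicate 4 (adjusted p = 0.0454).

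The summed SULT level was 461, 373, 438 and 401 FPKM in alcohol replicates 1 to 4, against 552, 612, 558 and 513 FPKM in control replicates 1 to 4. All alcohol samples were below the controls, at a ratio of means of 0.748. On the TPM scale, which sets every library to one common sum, the ratio was 0.831 and the groups overlapped. The Sult1 genes made up 61.3% to 65.2% of the class sum in alcohol samples, against 22.8% to 26.9% in controls. The Sult2 genes made up 34.5% to 38.5% of the class sum in alcohol samples, against 72.6% to 76.5% in controls. The 2 subfamilies thus changed places as the larger part of the class. Of the 7 untested SULT genes, Sult1e1, the estrogen sulfotransferase, had 15 to 104 reads per alcohol sample, against 2 to 12 per control. Its level was 2.16, 0.321, 0.641 and 0.492 FPKM in alcohol replicates 1 to 4, against 0.274, 0.139, 0.0458 and 0.187 FPKM in control replicates 1 to 4. All alcohol samples exceeded the controls, and alcohol replicate 1 was far above the other alcohol samples. Fitted with all 21049 genes, Sult1e1 had an adjusted p of 0.105. Sult2a7 had 118 reads over the alcohol samples and 182 over the controls. The other 5 had at most 4 reads in either group.

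The glucuronosyltransferases changed gene by gene, with both directions present. In the Ugt1a complex, where alternative first exons are joined to shared ones, 2 of 5 tested transcripts rose and none fell. That is 40% higher, near the 44.2% of all tested genes, of which 13% fell. Between 52.1% and 79.8% of the 50-base stretches of each Ugt1a gene recur in another gene, so their reads rest on the first exons and on how shared reads were divided, which is not given. Ugt1a2 had a single read in all 8 samples although it shares its last exons with Ugt1a1, so the shared reads were not counted to every gene. Ugt1a9, which conjugates phenols, had 25.4, 14.6, 26.1 and 14.5 FPKM in alcohol replicates 1 to 4, against 6.26, 2.28, 5.32 and 3.53 FPKM in control replicates 1 to 4. The groups did not overlap. Alcohol replicates 1 and 3 were the high pair here (log2 change 1.999 ± 0.267, adjusted p = 0.000153). Ugt1a1, the bilirubin-conjugating enzyme, averaged 58.8 ± 14.1 FPKM with alcohol and 33.4 ± 14.3 FPKM in controls (SD, n = 4 each). The groups overlapped through control replicate 1 (log2 change 0.86 ± 0.27, adjusted p = 0.0191). The call was lost without alcohol replicate 3 (adjusted p = 0.0522), control replicate 2 (0.0564) or control replicate 4 (0.0595), and with median-of-ratios scaling (0.0912). Ugt1a6a and Ugt1a6b, which conjugate small planar phenols, were not called. Ugt1a6a averaged 9.43 ± 0.933 FPKM with alcohol and 7.05 ± 3.77 FPKM in controls. Ugt1a6b averaged 13.2 ± 2.002 FPKM with alcohol and 9.98 ± 2.94 FPKM in controls. Without control replicate 1 both passed as higher, Ugt1a6a at an adjusted p of 0.00125 and Ugt1a6b at 0.00976. Ugt1a6b also passed as higher on the TPM scale (0.0426). Ugt1a5, at 2.33 ± 1.51 FPKM with alcohol and 2.19 ± 1.36 FPKM in controls, was not called.

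The Ugt2b genes, whose enzymes act mainly on steroids and bile acids, split into 2 that rose, 3 that fell and 2 that were not called. These shares are 28.6% higher and 42.9% lower, against 44.2% and 13% of all tested genes. Ugt2b38 had 1.59, 6.199, 2.16 and 1.86 FPKM in alcohol replicates 1 to 4, against 37.9, 15.4, 22.01 and 34.7 FPKM in control replicates 1 to 4. Every alcohol sample was below every control, and alcohol replicate 2 was the highest of its group. The log2 change was -2.90 ± 0.34 (adjusted p = 6.86e-05), the largest fall of the 44 genes. Ugt2b1, among the 3 most abundant UGT transcripts, had 133, 239.5, 163 and 244 FPKM in alcohol replicates 1 to 4, against 422, 247, 346 and 339 FPKM in control replicates 1 to 4. All alcohol values were under the lowest control, which was replicate 2 (log2 change -0.82 ± 0.22, adjusted p = 0.00927). Ugt2b37 averaged 0.8286 ± 0.265 FPKM with alcohol and 2.98 ± 2.04 FPKM in controls (log2 change -0.99 ± 0.30, adjusted p = 0.0175). Without control replicate 4 its adjusted p was 0.0503. Ugt2b35 rose to 115 ± 21.8 FPKM with alcohol and 61.2 ± 6.41 FPKM in controls (log2 change 0.89 ± 0.14, adjusted p = 0.000477). Ugt2b34 rose to 252 ± 33.8 FPKM with alcohol and 164 ± 29.7 FPKM in controls (log2 change 0.63 ± 0.15, adjusted p = 0.00457), and with median-of-ratios scaling its adjusted p was 0.0748. Ugt2b5 was the leading UGT transcript in both groups, at 26.4% of the class sum with alcohol and 26.8% in controls. It had 288, 535, 314 and 587 FPKM in alcohol replicates 1 to 4, against 377, 438, 481 and 569 FPKM in control replicates 1 to 4. The groups overlapped, with the alcohol samples again split into a low and a high pair (adjusted p = 0.563). Ugt2b36 had 193, 294, 219.9 and 299.9 FPKM in alcohol replicates 1 to 4, against 288, 300.4, 312 and 336 FPKM in control replicates 1 to 4. It was not called (log2 change -0.32 ± 0.15, adjusted p = 0.0994), and median-of-ratios scaling called it lower (0.0108).

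On chromosome 5, between 86889767 and 87591594 (GRCm38), 11 of the enzymes lie in a row, and both directions of change occur there. From the low end, Ugt2b34 rose, Ugt2b1 fell, Ugt2b35 rose, Ugt2b36 and Ugt2b5 were not called, and Ugt2b37, Ugt2a3 and Ugt2b38 fell. Sult1b1 (not called), Sult1d1 (higher) and Sult1e1 (not tested) follow. Of the 50-base stretches, 37.4% of Ugt2b38, 41.7% of Ugt2b5 and 18.3% of Ugt2b37 recur in another gene, chiefly in one another, so part of the reads among these 3 could be divided differently. Ugt2a3 averaged 106 ± 13.1 FPKM with alcohol and 143 ± 13.4 FPKM in controls (log2 change -0.43 ± 0.12, adjusted p = 0.0105), a call lost on the TPM scale (0.0939) and with quantile normalization (0.0962). In the Ugt3a pair, whose human counterparts use other sugars than glucuronic acid, Ugt3a1 averaged 11.6 ± 4.15 FPKM with alcohol and 19.2 ± 4.47 FPKM in controls (adjusted p = 0.022). Leaving out alcohol replicate 2, alcohol replicate 4 or control replicate 1 gave adjusted p of 0.0586, 0.0571 and 0.0591. Ugt3a2 averaged 159 ± 17.7 FPKM with alcohol and 152 ± 23.9 FPKM in controls and was not called. The summed UGT level was 1343, 1820.0, 1475 and 1879 FPKM in alcohol replicates 1 to 4, against 1865, 1518, 1742 and 1838 FPKM in control replicates 1 to 4. The groups overlapped (ratio of means 0.936), as did the shares of every UGT subfamily. The Ugt1a sum averaged 104 ± 24.5 FPKM with alcohol and 57.1 ± 23.7 FPKM in controls, with overlap.

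**Figure D4:**
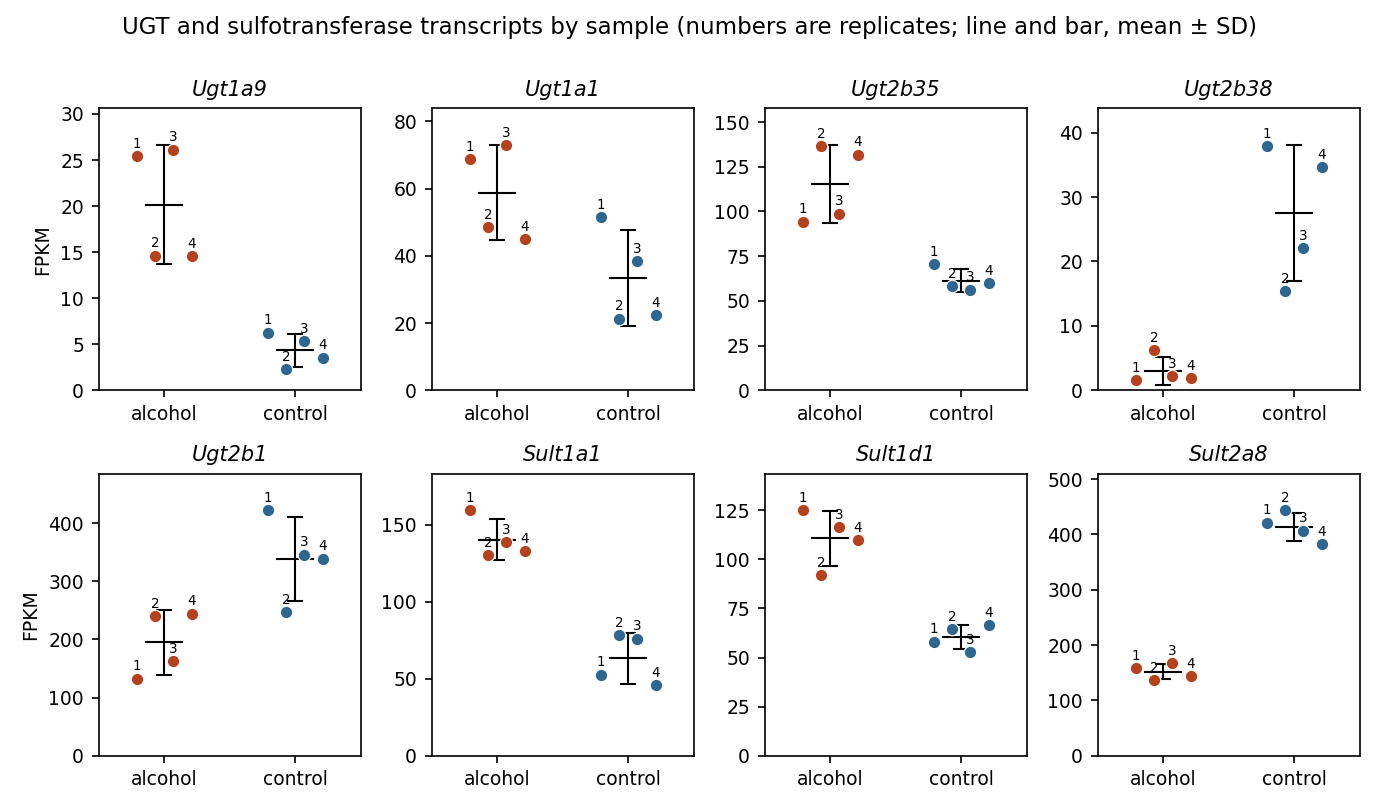
FPKM of 5 UGT and 3 SULT transcripts in each sample (points, numbered by replicate), alcohol left and control right, with a horizontal line at the mean and bars of ± 1 SD; each panel has its own axis from 0. Sult2a8, Ugt2b38 and Ugt2b1 lie lower in all 4 alcohol samples, Ugt1a9, Ugt2b35, Sult1a1 and Sult1d1 lie higher, and Ugt1a1 overlaps.

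The remaining 8 untested genes were also near the floor of detection. Gsto2 had 18 reads over the alcohol samples and 1 over the controls, and an adjusted p of 0.0132 when all 21049 genes were fitted. Gsta5 had 19 reads with alcohol and 8 in controls. Ugt1a10 had 73 reads with alcohol and 61 in controls. Ugt1a7c had 13 reads with alcohol and 1 in controls, and Mgst2 had 9 with alcohol and 2 in controls. Gstt4, Ugt1a2 and Ugt1a8 had 1 read each over all samples.

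Within the alcohol group, replicates 2 and 4 were the high pair for most GST genes, but not for the UGT and SULT genes. Both stood above both replicates 1 and 3 in 17 of 23 tested GST genes, in 6 of 7 mu genes and in all 4 alpha genes, but in 5 of 15 UGT and 0 of 6 SULT genes. Over the 44 tested enzymes this was 22 (50%), against 29.2% of all tested genes. Both stood below replicates 1 and 3 in 2 of 23 GST, 8 of 15 UGT and 4 of 6 SULT genes, and in 31.8% of all tested genes. The UGT genes were divided, with 4 of 5 Ugt1a genes lower and 5 of 7 Ugt2b genes higher in this pair. Replicates 2 and 4 had a Spearman correlation of 0.995 over genes and a chi-square per gene of 10.1 between their reads, where the other pairs within a group ranged from 56.6 to 234. They still differed by more than the counting noise of reads and were kept as 2 samples in the main fit. Such a difference does not show that they came from separate animals. With these 2 averaged as 1, 25 of the 27 calls remained, and Gstp3 and Ugt3a1 were lost.

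Of the 8 tested genes that supply the UGT cofactor, 4 rose and 1 fell on the FPKM scale, shares near the 44.2% higher and 13% lower of all tested genes, and with median-of-ratios scaling none rose and 3 fell. Slc35d2 averaged 15.5 ± 1.66 FPKM with alcohol and 10.1 ± 1.299 FPKM in controls (log2 change 0.57, adjusted p = 0.00183), and is a nucleotide sugar transporter. Slc35d1, which carries UDP-glucuronic acid into the endoplasmic reticulum, averaged 17.3 ± 2.304 FPKM with alcohol and 12.6 ± 0.689 FPKM in controls (adjusted p = 0.0077). Ugp2, which makes UDP-glucose, averaged 232 ± 42.8 FPKM with alcohol and 162 ± 21.2 FPKM in controls (adjusted p = 0.0207, or 0.0541 without alcohol replicate 2 and 0.0589 without alcohol replicate 4). Pgm2 averaged 2.01 ± 0.397 FPKM with alcohol and 1.36 ± 0.153 FPKM in controls (adjusted p = 0.0191, or 0.0593 without control replicate 3). The 1 that fell was Pgm1, named after its value was seen (log2 change -0.30, adjusted p = 0.0471), and this call held without control replicate 4 but was lost when any other single sample was left out (adjusted p 0.0548 to 0.145). For PAPS, the SULT cofactor, 1 of 6 tested genes rose and 1 fell, with median-of-ratios scaling too. The sulfate carrier Slc26a1 averaged 44.8 ± 1.904 FPKM with alcohol and 28.6 ± 4.61 FPKM in controls (adjusted p = 0.0011). The PAPS synthase Papss1 averaged 2.51 ± 0.125 FPKM with alcohol and 3.64 ± 0.395 FPKM in controls (adjusted p = 0.00399). Papss2, the more abundant PAPS synthase here, averaged 28.6 ± 6.61 FPKM with alcohol and 31.1 ± 8.66 FPKM in controls and was not called. For glutathione, 3 of 12 tested genes rose and 2 fell, against none and 4 with median-of-ratios scaling. The largest change was that of Nat8f1, a relative of the N-acetyltransferase Nat8 that completes mercapturic acids, which fell to 20.7 ± 2.78 FPKM with alcohol and 113 ± 5.73 FPKM in controls (log2 change -2.40, adjusted p = 2.78e-07). Chac2, which breaks down glutathione, averaged 13.5 ± 1.4999 FPKM with alcohol and 19.01 ± 2.73 FPKM in controls (adjusted p = 0.00862). Ggt6 averaged 6.10 ± 1.198 FPKM with alcohol and 3.86 ± 0.931 FPKM in controls (adjusted p = 0.0116). The synthetase Gss averaged 60.7 ± 9.27 FPKM with alcohol and 42.7 ± 6.25 FPKM in controls (adjusted p = 0.0117). Gclc and Gclm, the subunits of the rate-limiting ligase, had log2 changes of -0.03 and -0.28 and were not called. With median-of-ratios scaling Gclm passed as lower (log2 change -0.58, adjusted p = 0.0105).

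Transporters that export conjugates rose in 3 of 5 tested cases and none fell, while median-of-ratios scaling kept the 3 rises and called Abcg2 lower. The background for this list and the next is 44.2% higher and 13% lower over all tested genes on the FPKM scale. Abcc4, a basolateral pump for sulfates and glucuronides, had 5.47, 6.99, 3.42 and 6.72 FPKM in alcohol replicates 1 to 4, against 0.0537, 0.08005, 0.0666 and 0.0812 FPKM in control replicates 1 to 4 (log2 change 2.60, adjusted p = 1.48e-06). Abcc3 averaged 65.02 ± 3.79 FPKM with alcohol and 22.9 ± 6.79 FPKM in controls (log2 change 1.52, adjusted p = 0.000144). The canalicular pump Abcc2 averaged 72.05 ± 9.87 FPKM with alcohol and 26.8 ± 11.7 FPKM in controls (log2 change 1.46, adjusted p = 0.000374). Abcc6 was not called (log2 change 0.25), and it passed as higher without control replicate 1 (adjusted p = 0.0311) and on the TPM scale (0.0419). Of the 4 enzymes that take conjugates apart, 2 rose, and with median-of-ratios scaling Sts, the steroid sulfatase, fell as well (adjusted p = 0.0402). Arsa, an arylsulfatase, averaged 19.6 ± 1.22 FPKM with alcohol and 8.98 ± 1.25 FPKM in controls (log2 change 1.05, adjusted p = 3.27e-05). Gusb, beta-glucuronidase, averaged 3.902 ± 0.212 FPKM with alcohol and 2.45 ± 0.513 FPKM in controls (adjusted p = 0.00258).

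Of 13 tested regulators, 7 rose and 1 fell, or 3 and 2 with median-of-ratios scaling, and over all tested genes 44.2% were higher and 13% lower on the FPKM scale. Nfe2l2, which encodes NRF2, averaged 24.8 ± 5.96 FPKM with alcohol and 11.3 ± 0.734 FPKM in controls (log2 change 1.04, adjusted p = 0.00029). Its inhibitor Keap1 averaged 11.5 ± 0.786 FPKM with alcohol and 7.98 ± 0.8404 FPKM in controls (adjusted p = 0.0021, or 0.0683 with that scaling). Stat5b, which relays growth hormone signals, averaged 5.27 ± 0.261 FPKM with alcohol and 3.38 ± 0.552 FPKM in controls (adjusted p = 0.00186). The 1 that fell was Ppara, the fatty acid receptor, at 9.66 ± 2.86 FPKM with alcohol and 23.8 ± 4.195 FPKM in controls (log2 change -1.24, adjusted p = 0.000233). Nr1i3, named after its value was seen, averaged 78.1 ± 15.996 FPKM with alcohol and 46.7 ± 8.77 FPKM in controls (adjusted p = 0.00397, or 0.0643 with that scaling). Genes commonly read as targets of these regulators rose in 5 of 6 tested cases, and in 4 with median-of-ratios scaling. Cyp2b10, the usual CAR target in mice, averaged 537 ± 126 FPKM with alcohol and 0.441 ± 0.247 FPKM in controls (adjusted p = 3.75e-10). Cyp1a2, an AHR target, averaged 544 ± 167 FPKM with alcohol and 331 ± 42.8 FPKM in controls (adjusted p = 0.0174), a call lost with that scaling (0.185) and without alcohol replicate 4 (0.0502). The NRF2 targets Nqo1 and Srxn1 had log2 changes of 1.71 and 2.34 (adjusted p = 2.19e-05 and 8.86e-06). Hmox1, the haem oxygenase, had a log2 change of 3.89 (adjusted p = 4.28e-07). Cyp3a11, a PXR target, averaged 970.1 ± 316 FPKM with alcohol and 646 ± 184 FPKM in controls and was not called. It passed as higher on the TPM scale (adjusted p = 0.0340) and with alcohol replicates 2 and 4 averaged (0.0462). The same held without alcohol replicate 2 (0.0422) or control replicate 3 (0.0379).

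Several marker lists moved with the groups, and their part in the enzyme changes was not tested. The counts below are to be read beside all tested genes, of which 44.2% were higher and 13% lower on the FPKM scale. With median-of-ratios scaling 2386 of 9228 were higher and 2446 lower. All 9 sinusoidal endothelial markers rose (summed level 75.7 to 95.2 FPKM with alcohol, 18.3 to 29.6 FPKM in controls). Of 9 stellate markers 6 rose and 1 fell (170 to 233 FPKM with alcohol, 70.5 to 133 FPKM in controls). Of 7 tested Kupffer and macrophage markers none rose and 1 fell, or 5 without control replicate 2 and 0 when any other sample but alcohol replicate 1 (2 fell) was left out (52.0 to 89.0 FPKM with alcohol, 42.5 to 134 FPKM in controls). Of 9 hepatocyte markers 1 rose and 3 fell, and their sum was 55608 to 64435 FPKM with alcohol, against 60083 to 69773 FPKM in controls. In bulk RNA, fewer cells of a type and less RNA per cell cannot be told apart. No listed marker was at 0 in all 8 samples, and all 6 lymphocyte markers had means under 1 FPKM. Hepatocyte zone markers were mixed: 6 pericentral genes rose and 3 fell of 10, and 3 periportal genes rose and 4 fell of 10. Median-of-ratios scaling gave 3 and 4 for the pericentral list and 0 and 6 for the periportal one. Of 10 genes that are higher in male than female mouse liver, 7 fell and none rose, with a summed level of 2233 to 4070.2 FPKM with alcohol and 6879.5 to 8753 FPKM in controls. Of 5 tested female-biased genes 3 rose and 1 fell. Of 4 tested Y-linked genes Ddx3y and Uty rose and none fell, and median-of-ratios scaling called Eif2s3y lower (adjusted p = 0.0430). Summed with Xist, which is expressed in female cells, these genes stood at 13.4 to 23.8 FPKM with alcohol and 8.47 to 14.2 FPKM in controls. Xist itself had 0 to 4 reads per alcohol sample and 0 in every control.

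Over the 8 samples, the 5 genes outside the 3 families whose levels most resembled that of Gstm3 were Gm41806 (Pearson r of log2(FPKM + 1) 0.996), Pdhb, Emilin1, Snu13 and Tspan7. For Sult2a8 they were Adh4 (0.997), Wdr18, Ik, Clec2h and Mov10. For Ugt2b38 they were Aif1 (0.981), 2310001H17Rik, Mup22, Bst2 and Sephs1. These are descriptions over 8 samples in 2 groups, and any gene that separates the groups in the same direction scores high.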

How the data were processed

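RNA was sequenced from 4 alcohol and 4 control samples. Per the labels' protocols, RNA was purified on columns and made into mRNA libraries with a SMARTER kit. The deposited values are FPKM computed by the authors for 21049 gene symbols, 1 column per sample, with no other columns. The submitters' processing notes name the builds GRCm38 and mm10, and the aligner, counter, annotation and strand setting are not stated there or in the labels. FPKM divides each library by its own total, so the most abundant transcripts move all others. Library totals and whole reads were recovered from the values for 21039 genes (99.95%, to a tolerance of 1e-05 of a read).

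Groups and replicate numbers came from the labels, and all samples carry 1 batch label. limma 3.58.1 in R 4.3.3 was fitted to log2(FPKM + 1), using the 9228 genes whose mean reached 1 FPKM, with a variance trend on mean level, 2-sided p-values and Benjamini-Hochberg adjustment over these genes at 0.05. A log2 change is alcohol minus control on that scale, which understates low genes. The fit was also run on simulated data with independent samples and a small set of changed genes, balanced in direction. That setting had neither the broad shift nor the like pair of alcohol replicates seen here, so it does not test the fit for them. Sums, shares and promoter motifs were described without a test.

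Values per sample are given for genes past the threshold with a log2 change of at least 1 in either direction and for the 3 most abundant per class, others by means or counts, and partner lists by up to 4 genes of smallest p. Pgm1, Papss2, Gclc, Gclm, Abcg2 and Nr1i3 were named outside that rule. The enzymes, lists and tests were chosen with earlier results of these data known. Positions and shared 50-base stretches come from GENCODE M21, which held 58 of the 59 genes (all but Gsta5). The gene length that gave whole reads differed from the M21 exon length for most of them. It was 4426 against 631 bases for Gstp-ps, 1894 against 3842 for Gstt3, 1630 against 4344 for Gsta3 and 3229 against 2224 for Ugt1a1. Shared stretches and overlaps thus describe the M21 models, which may not be the models that were counted. Alternatives were other pseudocounts, expression minimums and scalings, a replicate block, samples left out, replicates 2 and 4 of the alcohol group averaged, and voom on recovered reads. Voom, and the counts of the partner and marker lists under the alternatives, were chosen after seeing the data.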

Additional observations from a re-analysis of the deposited data

Results flagged for a closer look

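A gap test within each group of 4 samples was run on 94 groups of the enzymes' FPKM values. It divides the distance of the highest or lowest sample from its nearest neighbour by the group's range and compares this with Dixon's 95% critical value. It flagged 4 groups, and chance flags about 1 in 20. Ugt2b38 in alcohol replicate 2 stood above the other alcohol samples (ratio 0.876, 6.199 FPKM). Sult1c2 in alcohol replicate 1 stood below the others (0.878, 1.46 FPKM), and its call was lost without that sample. Gstp-ps in control replicate 4 stood above the other controls (0.865, 71.0 FPKM). Mgst1 in control replicate 1 stood below the other controls (0.846, 2782 FPKM).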

How the results depend on the processing

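Of the 27 called enzymes, 18 kept their call and direction under all 19 alternatives. The 16 reversals were all of genes that were not called. With median-of-ratios scaling these were Gsta4 (log2 change -0.17), Gstt1 (-0.12), Gstz1 (-0.26), Ugt1a5 (-0.13) and Ugt3a2 (-0.23). Ugt1a5 was at -0.26 with quantile normalization and Gstm7 at 0.078 on the TPM scale. With 1 sample left out at a time, values ran from -0.20 to 0.29 for Ugt1a5, from -0.34 to 0.0019 for Ugt2b5, from -0.017 to 0.27 for Gsta4, from -0.018 to 0.34 for Gstt1, from -0.15 to 0.030 for Gstm7 and from -0.042 to 0.092 for Gstz1.

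With median-of-ratios scaling, 2386 of all genes were higher and 2446 lower, and of the enzymes 19 were lower in all, 9 GST genes were lower and 2 UGT genes higher. Quantile normalization gave 2221 genes higher and 2307 lower, with 4 GST genes lower. The lower UGT count was 3 with no expression minimum and 3 on the TPM scale. The lower GST count was 5 with alcohol replicates 2 and 4 averaged, and 2 to 5 with 1 sample left out (5 without alcohol replicate 2). The summed UGT ratio was 0.759 with median-of-ratios scaling. The summed SULT ratio was 0.831 on the TPM scale and 0.607 with median-of-ratios scaling. The causes were not tested.

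By the rule used (every same-number correlation over 0.1), the replicate numbers were not taken to pair the samples: deviations from the group means correlated at 0.349, 0.216, 0.0706 and 0.280 for numbers 1 to 4. Replicates 1 and 4 of both groups correlated best with their own number, and replicates 2 and 3 of both groups did not. With a replicate block all 27 calls remained, 18 enzymes were higher and 13 lower, and 5 GST genes were lower. The 4 added calls were Gstp1 (adjusted p = 0.0465), Gstp2 (0.0465) and Gstp-ps (0.00913), lower, and Ugt1a6b (0.0139), higher. The count models planned as alternatives were not run because the deposited unit is FPKM. Genes under 1 FPKM rest on few reads, which limits what can be seen for the 15 untested enzymes.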
